A study of Mus musculus with 16 samples.

Results

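The livers of aged mice that carried a hairpin against *Fos* were compared with the livers of control mice across all genes with enough reads. Of the 16 RNA-seq libraries of the study, 8 came from liver, chosen by the tissue and treatment given in the sample labels, 4 from shFos livers and 4 from NT livers. All 8 came from wild-type C57BL/6 mice, for which the labels give an age of 24 months. The mice were female, were injected intravenously at 24 months with an adeno-associated virus vector of serotype 8 (AAV8), and were collected 3 months later. The NT mice received the same kind of vector with a non-targeting hairpin in place of the hairpin against *Fos*, so both groups share the injection and the virus. The promoter of the hairpin and the cell types that took up the vector are not given in the sources used here, and whole-liver RNA was sequenced, so that fewer cells of a type and less RNA per cell cannot be told apart in any value below. The labels give replicate numbers but not animals, and p-values therefore measure the spread between these samples.

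*Fos* codes for a subunit of AP-1, a dimeric transcription factor made of Fos, Jun, Maf and Atf family proteins. Fos proteins bind DNA only as partners of a Jun protein, at sites whose usual form is TGACTCA or TGAGTCA. In the liver several AP-1 genes, such as *Fos*, are immediate early genes, switched on within minutes by growth signals, cytokines, partial hepatectomy and stress. AP-1 acts beside Stat3, NF-kB and C/EBP proteins on the promoters of acute-phase genes. Hepatocytes make up most of the RNA of the organ, and Kupffer cells, sinusoidal endothelial cells and stellate cells make up most of the rest.

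Each liver library held between 16652150 and 18300277 reads counted on genes. Levels are given as CPM, the counts scaled to library size with TMM factors. A gene listed at 0 could hold as many as 3 counts, which is 0.156 to 0.198 CPM by library and covers counting error only. Of 24984 genes, 13144 had enough reads to be tested. Hepatocyte genes were abundant in every library: the 18 hepatocyte markers tested summed to 265695, 198256, 174594 and 123499 CPM in the NT livers and 181008, 176162, 231759 and 187691 CPM in the shFos livers, and albumin (*Alb*), the main plasma protein, had between 27345 and 170014 CPM. A single library stood apart. NT replicate 4 differed more than 2-fold from the mean of the rest of its group at 1722 genes (13.1% of those tested), against 212 to 1143 genes for the other 7 libraries, and its correlation with the other libraries was 0.922 to 0.935, where other pairs reached 0.985. It carried high acute-phase transcripts and is described in full further on, and many results below are given with and without it.

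*Fos* itself (ENSMUSG00000021250.13, chromosome 12, 85473890 to 85477273, + strand, GENCODE M21, mm10) was weakly expressed in these livers. It stood at 1.12, 2.37, 3.7 and 2.86 CPM in the NT livers and 1.63, 1.5, 2.76 and 1.38 CPM in the shFos livers, and the groups overlapped. Its log2 fold change came to -0.47 (standard error 0.38; edgeR's quasi-likelihood test, adjusted p = 0.778), and an exact permutation test of the CPM values, two-sided with 70 possible assignments, gave p = 0.343, and the smallest p it can give is 0.0286. The knockdown was thus not detectable in these liver RNA-seq libraries at this depth, and the shFos group is used below as the labels define it. The authors report lower *Fos* by RT-qPCR in the livers of the shFos group, a measure that these counts do not hold. The log2 fold change was -0.23 without NT replicate 3, -0.72 without NT replicate 1, -0.75 without shFos replicate 3, and -0.43 without NT replicate 4.

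Genes of the AP-1 family, *Fos* among them, were mostly lower in the shFos livers, none past the adjusted threshold. Of 15 AP-1 family genes tested, 13 had a negative log2 fold change and 3 of those had an unadjusted p under 0.05, where 3.16% of all genes were lower at that level. The median over the family was -0.30, or -0.36 without NT replicate 4, against -0.01 over all genes. It was -0.14 without NT replicate 3 and -0.47 without NT replicate 1. *Jun*, the main partner, had 17.3, 12.9, 18.2 and 19.3 CPM in the NT livers and 12.8, 10.5, 13.1 and 8.91 CPM in the shFos livers (log2 fold change -0.58, standard error 0.17), and only shFos replicate 3 lay above the lowest NT liver. *Junb*, a partner that responds to cytokines, had 24.9, 46.2, 35 and 78.2 CPM in the NT livers and 21.6, 28.1, 32.6 and 18.5 CPM in the shFos livers, with its highest value in NT replicate 4 (log2 fold change -0.87, and -0.50 without that library). *Mafk*, a small Maf protein with no activation domain, had a log2 fold change of -0.37 (standard error 0.15). *Jund*, the most abundant family member here at 78.9 to 98.6 CPM, had -0.09 on the log2 scale (-0.14 without NT replicate 4), and *Mafg* was higher, with 0.22. The remaining members tested, *Fosl2*, *Maff*, *Batf*, *Batf2*, *Batf3*, *Jdp2*, *Atf2*, *Atf3* and *Atf7*, had values from -0.64 (*Batf3*) to 0.04 (*Atf7*). *Fosb* and *Fosl1* had too few reads to be tested.

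Across the 13144 liver genes, 0 had an adjusted p under 0.05 in edgeR's quasi-likelihood test (0%), with a smallest adjusted p of 0.712. An unadjusted p under 0.05 was found for 886 genes (6.74%), of which 470 were higher (3.58%) and 416 lower (3.16%) in the shFos livers. The 4 shFos libraries lay wholly above or wholly below the 4 NT libraries for 567 genes (4.31%), 367 of them higher (2.79%) and 200 lower (1.52%). DESeq2, run as an alternative, gave an adjusted p under 0.05 for 37 of the 12189 genes it adjusted (0.304%), 17 higher (0.139%) and 20 lower (0.164%). That number ranged from 2 (0.0108%) without shFos replicate 4 to 86 (0.634%) without NT replicate 1, with 7 without shFos replicate 1 (0.038%) and 7 without shFos replicate 3 (0.0379%). *Car14* alone was called by DESeq2 in each of the 8 fits with a library left out, *Pf4* was called in 7 of them and *Acly* and *Peg3* in 6, while *Sipa1l2*, *Zfp608*, *Il17ra* and *Ltbr* were called in 0 of the 8. The genes described next passed in DESeq2 and not in edgeR.

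**Figure D1:**
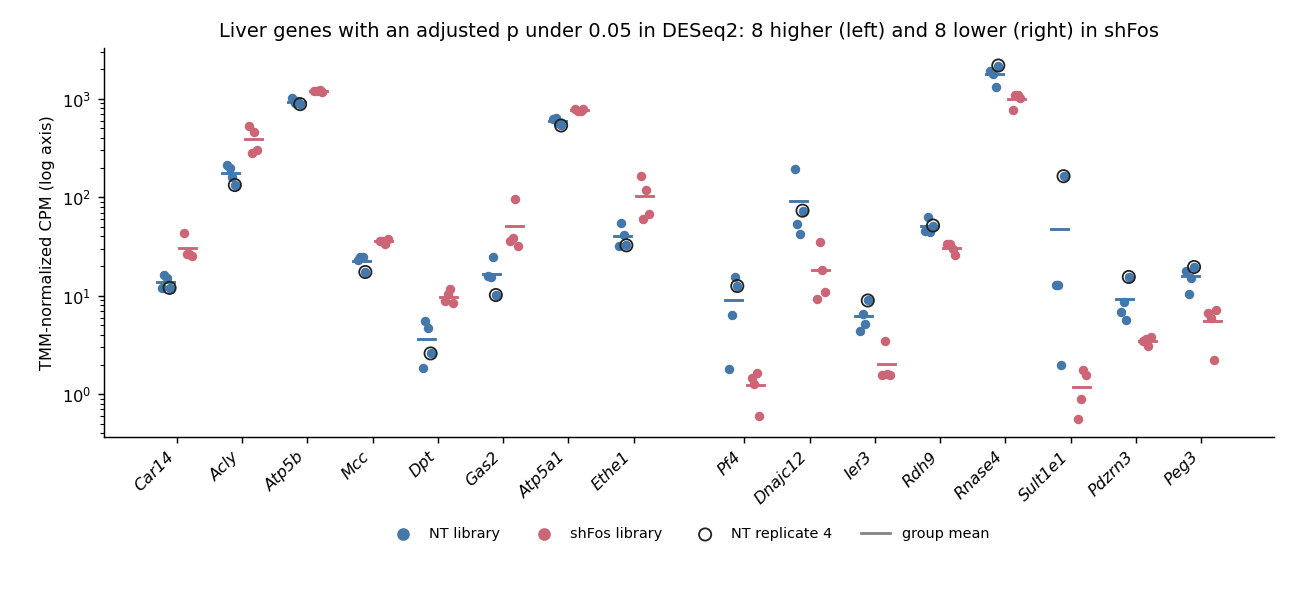
CPM (log axis) of the 8 higher and the 8 lower liver genes with the smallest adjusted p in DESeq2, with 1 point per library, NT in blue and shFos in red, a bar at each group mean and a ring around NT replicate 4. For all 16 genes the 4 red points lie on the same side of the 4 blue points, and the ring of *Sult1e1* stands at 164 CPM, far above the other NT livers.

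The genes that were higher in the shFos livers included metabolic enzymes and a nuclear receptor. *Car14* (ENSMUSG00000038526.14, chromosome 3, 95897768 to 95904691, - strand), a membrane carbonic anhydrase, had 12.1, 16.2, 15.1 and 12 CPM in the NT livers and 43, 26.7, 26.7 and 25.4 CPM in the shFos livers. Every shFos liver was above every NT liver, by a log2 fold change of 1.14 (standard error 0.19; DESeq2 adjusted p = 0.00322, edgeR adjusted p = 0.712). *Acly* (ENSMUSG00000020917.17, chromosome 11, 100476353 to 100528000, - strand), the cytosolic enzyme that splits citrate to supply acetyl-CoA for lipid synthesis, had 211, 198, 159 and 133 CPM in the NT livers and 525, 284, 459 and 304 CPM in the shFos livers, with shFos replicates 1 and 3 highest (log2 fold change 1.16, standard error 0.24, and 1.04 without NT replicate 4). *Ethe1*, a mitochondrial sulfur dioxygenase, had a log2 fold change of 1.34 (standard error 0.34). *Nr1i2*, the xenobiotic receptor PXR, had 67.7, 70.7, 81.9 and 55.8 CPM in the NT livers and 101, 101, 119.7 and 97.7 CPM in the shFos livers, a log2 fold change of 0.60. The sulfotransferase *Sult2a5* had 1.72, with the groups apart. Counting can split reads among *Sult2a* paralogs, so its level is uncertain.

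The other genes higher in the shFos livers came from several groups. *Mcc*, a gene known from colorectal cancer that restrains cell cycle entry, was the most evenly separated, with 23.1, 24.7, 24.6 and 17.4 CPM in the NT livers and 35.8, 35.6, 33.6 and 37.6 CPM in the shFos livers (log2 fold change 0.67, standard error 0.12). *Dpt*, the extracellular matrix protein dermatopontin made by fibroblasts, had 1.85, 5.48, 4.74 and 2.59 CPM in the NT livers and 8.75, 10.3, 11.7 and 8.49 CPM in the shFos livers (log2 fold change 1.42, standard error 0.32). *Tsc22d3*, the glucocorticoid-induced leucine zipper GILZ, had 97.3, 72.6, 90.4 and 74.3 CPM in the NT livers and 142, 104, 162 and 153 CPM in the shFos livers (log2 fold change 0.75). *Gas2*, a growth-arrest protein of the cytoskeleton, had its highest value in shFos replicate 3, at 95.7 CPM against 32 to 38.2 CPM in the other shFos livers. *Gng11*, *Arl4d* and *Arhgef17*, which act in G-protein and small-GTPase signalling, had log2 fold changes of 0.89, 0.75 and 0.69, each with the groups apart, as had the predicted gene *Gm11437* with 0.83. *Ntrk2*, a neurotrophin receptor, had 2.05, 3.87, 1.77 and 2.81 CPM in the NT livers and 16.1, 1.61, 50.8 and 53.2 CPM in the shFos livers, and *Mmd2* had 5.67, 2.08, 3.18 and 2.17 CPM in the NT livers and 12.1, 5.39, 45.7 and 7.06 CPM in the shFos livers. For both the groups overlapped, and the difference came from 1 to 3 high shFos livers.

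The genes that were lower in the shFos livers included secreted proteins and cytokine receptors. *Cp* (ENSMUSG00000003617.16, chromosome 3, 19957054 to 20009145, + strand), the copper-carrying plasma ferroxidase ceruloplasmin and an acute-phase protein, had 4820.2, 4806, 3178 and 6736 CPM in the NT livers and 1659, 3051, 1922 and 2659 CPM in the shFos livers. The highest shFos liver was just below the lowest NT liver, with a log2 fold change of -1.07 (standard error 0.29; DESeq2 adjusted p = 0.0392, edgeR adjusted p = 0.714), or -0.89 without NT replicate 4. DESeq2 called *Cp* in 2 of the 8 fits with a library left out, and did not call it without NT replicate 4. *Pf4* (ENSMUSG00000029373.7, chromosome 5, 90772435 to 90773383, + strand), a chemokine of platelets and macrophages, had 1.78, 6.35, 15.6 and 12.5 CPM in the NT livers and 1.46, 1.28, 1.64 and 0.598 CPM in the shFos livers, a log2 fold change of -2.86 (standard error 0.62). NT replicate 1 was close to the shFos livers, and the other 3 NT livers were several times higher. *Ier3*, an immediate early gene that limits cell death, had 4.42, 6.52, 5.21 and 8.94 CPM in the NT livers and 1.57, 3.44, 1.59 and 1.56 CPM in the shFos livers (log2 fold change -1.62). The cytokine receptors *Il17ra* and *Ltbr* had log2 fold changes of -0.59 and -0.54, each with the groups apart. The secreted ribonucleases *Rnase4* and *Ang* had -0.85 and -0.80. These genes overlap on the same strand of chromosome 14 (51091077 to 51106151 and 51091150 to 51102009) and share a promoter region, so their counts are not independent.

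Several of the other lower genes code for enzymes, carriers or signalling proteins. *Rdh9*, a short-chain dehydrogenase of the retinol dehydrogenase family, had 45.3, 63.6, 43.9 and 51.7 CPM in the NT livers and 33.4, 33.7, 29.6 and 26.1 CPM in the shFos livers (log2 fold change -0.74, standard error 0.14, and -0.74 without NT replicate 4). *Dnajc12*, a co-chaperone of the aromatic amino acid hydroxylases, had 193, 54.1, 42.7 and 73.1 CPM in the NT livers and 9.26, 35.1, 18.1 and 10.8 CPM in the shFos livers, with NT replicate 1 highest (log2 fold change -2.31). *Nuak2*, a kinase related to AMPK, had -0.81, and *Slc37a1*, a sugar-phosphate exchanger, had -1.49. *Sult1e1*, the estrogen sulfotransferase, had 12.8, 12.9, 1.98 and 164 CPM in the NT livers and 0.561, 0.889, 1.76 and 1.56 CPM in the shFos livers. Its log2 fold change was -5.33 with all libraries and -2.95 without NT replicate 4, and shFos replicate 3 lay just below NT replicate 3. The imprinted gene *Peg3* had 17.7, 10.5, 15.2 and 19.6 CPM in the NT livers and 6.62, 5.95, 2.23 and 7.24 CPM in the shFos livers (log2 fold change -1.51). *Zfp608*, *Sipa1l2*, *Pdzrn3*, *Cd9*, *Rap1gap2* and *Grk3* had log2 fold changes from -1.39 (*Pdzrn3*) to -0.68 (*Cd9*) with the groups apart, and *Sorcs2* had -2.27 with overlap. *Slc14a1*, a urea transporter with about 1 CPM in NT livers, was among the genes with the smallest unadjusted p in edgeR (log2 fold change -1.65), with 0.792, 1.21, 0.989 and 1.22 CPM in the NT livers and 0.281, 0.278, 0.47 and 0.299 CPM in the shFos livers. DESeq2 gave it no adjusted p.

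The promoters of the called genes were searched for the letters TGANTCA in the 250 bases before the RefSeq gene start (GRCm38.p6). This pattern is looser than the usual AP-1 site, since it allows any base at its centre, and it reads the same on both strands. Of the 37 genes, 27 had a promoter entry and 3 of those held the motif (11.1%), against 606 of 10373 tested genes with an entry (5.84%). All 3 were lower in the shFos livers. The centre base was T for *Cp*, G for *Rdh9* and A for *Sipa1l2*, so only *Rdh9* held the usual form. Matches were not counted by centre base. The windows are given because they show where the letters lie, with the motif in capitals and the strand of the gene written 5′ to 3′. For *Cp* the window is chr3:19956804-19957053 (+ strand) and the motif starts at position -177 from the gene start. For *Rdh9* it is chr10:127776155-127776404 (+ strand), with the motif at -61, and for *Sipa1l2*, a regulator of Rap GTPases, chr8:125492834-125493083 (- strand), with the motif at -46. The *Cp* window ends just before the first base of the gene in GENCODE M21, the *Rdh9* window runs into its first bases, and the *Sipa1l2* window lies inside the gene (125418063 to 125569808), upstream of a RefSeq start that differs from the GENCODE gene start. A match is a description of the letters and not evidence of binding.
Cp: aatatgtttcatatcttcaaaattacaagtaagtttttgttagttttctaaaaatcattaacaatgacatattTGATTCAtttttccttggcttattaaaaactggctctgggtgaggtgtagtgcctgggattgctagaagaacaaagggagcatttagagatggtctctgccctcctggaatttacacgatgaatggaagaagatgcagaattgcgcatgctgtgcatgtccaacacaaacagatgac
Rdh9: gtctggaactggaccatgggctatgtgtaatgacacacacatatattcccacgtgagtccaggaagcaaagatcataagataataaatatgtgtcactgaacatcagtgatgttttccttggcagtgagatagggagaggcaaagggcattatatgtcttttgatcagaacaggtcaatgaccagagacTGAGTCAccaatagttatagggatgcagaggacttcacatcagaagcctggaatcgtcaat
Sipa1l2: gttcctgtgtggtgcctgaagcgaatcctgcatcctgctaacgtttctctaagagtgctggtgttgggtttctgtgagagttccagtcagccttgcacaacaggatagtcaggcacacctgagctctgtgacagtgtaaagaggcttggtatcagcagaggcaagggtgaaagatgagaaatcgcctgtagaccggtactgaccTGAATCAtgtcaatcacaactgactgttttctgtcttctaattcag

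Genes of the mitochondrial respiratory chain, which passes electrons to oxygen and drives ATP synthesis, were higher in the shFos livers by small and even amounts. All 38 nuclear-coded subunits tested had a positive log2 fold change, from 0.04 to 0.46 with a median of 0.29, where the median over all genes was -0.01. Of these, 20 had an unadjusted p under 0.05, against 3.58% of all genes in that direction, and for 20 the groups did not overlap, against 2.79%. The 2 called by DESeq2 were *Atp5b* and *Atp5a1*, the catalytic and regulatory subunits of the ATP synthase head. *Atp5b* (ENSMUSG00000025393.12, chromosome 10, 128083273 to 128090391, + strand) had 1010.4, 914, 942 and 883 CPM in the NT livers and 1209.95, 1200.4, 1218 and 1181 CPM in the shFos livers (log2 fold change 0.36, standard error 0.14; DESeq2 adjusted p = 0.016). *Atp5a1* had 627, 635, 565 and 536 CPM in the NT livers and 784, 756, 751 and 797 CPM in the shFos livers (log2 fold change 0.39). Subunits were grouped into the 5 complexes by gene symbol, and all 5 groups had positive medians. They were 0.27 over 14 *Nduf* genes and 0.36 over 4 genes of complex II. The others were 0.29 over 6 of complex III, 0.32 over 8 *Cox* genes and 0.35 over 6 of the ATP synthase. The *Nduf* group stands for complex I but holds *Ndufa4*, a subunit of complex IV, to which the *Cox* genes belong. *Ndufb5* of complex I had 80.9, 71.1, 68.8 and 62.5 CPM in the NT livers and 87.8, 88.9, 87.5 and 92.2 CPM in the shFos livers (log2 fold change 0.33), *Sdhd* of complex II had 0.46, *Cox7b* of complex IV had 0.35 and *Atp5g1* had 0.36. Without NT replicate 4 the median was 0.21, all 38 remained positive, and over the 8 fits with a library left out it lay between 0.21 and 0.36. The median subunit in each library, as log2 (CPM + 0.5) minus the NT mean, stood at 0.18, 0.12, -0.07 and -0.20 in the NT livers and 0.32, 0.23, 0.31 and 0.33 in the shFos livers. The 4 shFos livers were close together and the NT livers were spread, with NT replicates 3 and 4 lowest.

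**Figure D2:**
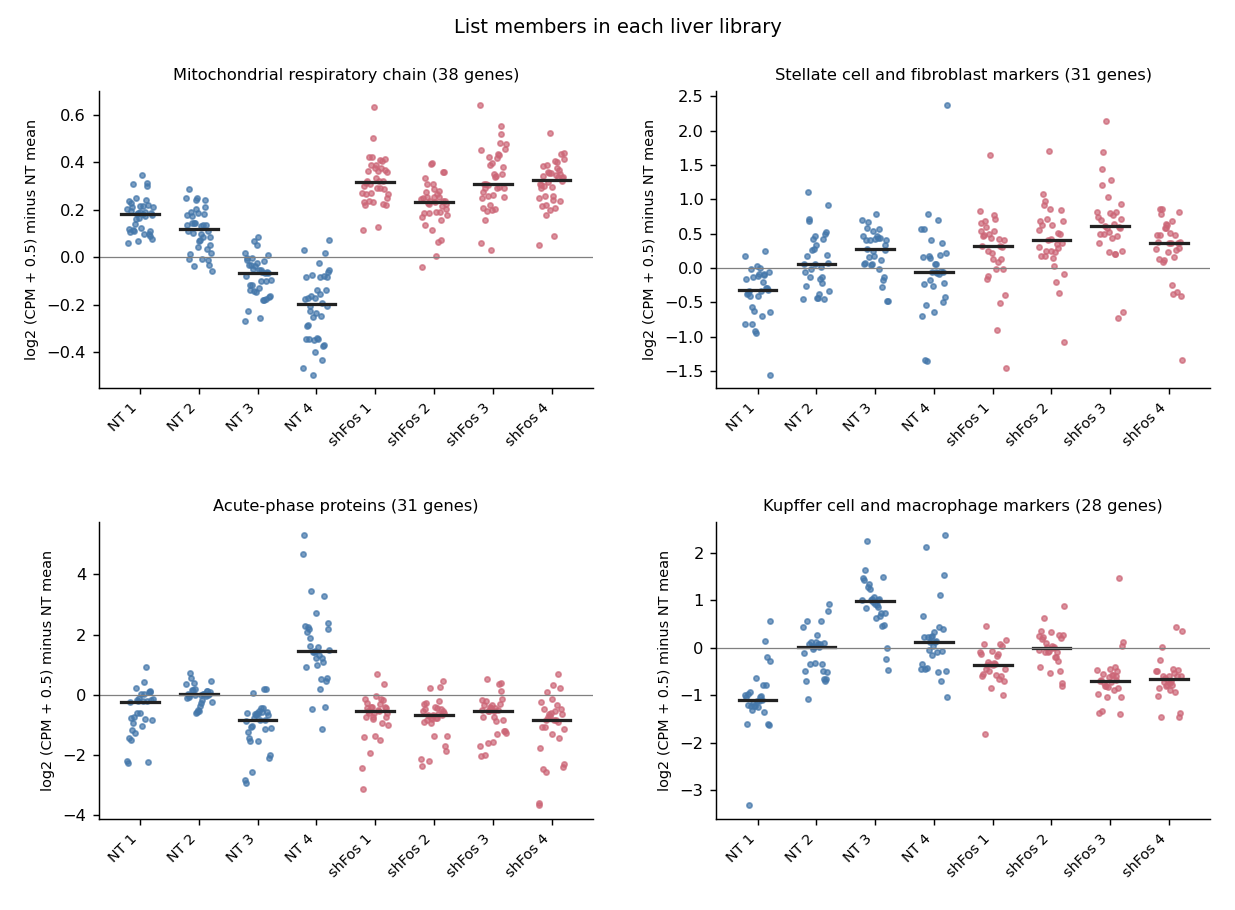
Each point is a gene of the named list in a liver library, as log2 (CPM + 0.5) minus the mean of the 4 NT livers, and each bar is the median of the list in that library, with NT in blue and shFos in red. Respiratory chain medians lie at 0.23 to 0.33 in the shFos livers and between -0.20 and 0.18 in the NT livers. The acute-phase median is highest in NT replicate 4 (1.47) and next highest in NT replicate 2 (0.02). Medians of the Kupffer cell markers range from -1.10 to 0.98 within the NT group.

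Genes of amino acid breakdown and of the urea cycle were also higher. Of 32 tested, 28 had a positive log2 fold change (median 0.36, and 0.33 without NT replicate 4), 9 with an unadjusted p under 0.05 and 5 with the groups apart, against 3.58% and 2.79% of all genes. *Cps1*, which makes carbamoyl phosphate as the entry step of the urea cycle, had 1599, 2100.4, 1921 and 2148 CPM in the NT livers and 2723, 2471, 4181 and 2518 CPM in the shFos livers (log2 fold change 0.61, standard error 0.23). *Asl*, argininosuccinate lyase of the same cycle, had 389, 478, 345 and 435 CPM in the NT livers and 628, 556, 631 and 521 CPM in the shFos livers (log2 fold change 0.50). *Gls2*, the liver glutaminase that feeds ammonia to it, had 309, 336, 376 and 124 CPM in the NT livers and 529, 529, 725 and 482 CPM in the shFos livers, with NT replicate 4 lowest (log2 fold change 0.98, and 0.72 without it). *Aass*, which degrades lysine, and *Csad*, which makes taurine precursors from cysteine, had 0.53 and 1.44. None of these passed the adjusted threshold in edgeR or DESeq2 with all libraries.

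Those enzymes are concentrated in hepatocytes near the portal vein, and periportal and pericentral genes had medians of opposite sign. Of 24 periportal genes, 20 were higher in the shFos livers (median 0.37, 8 with an unadjusted p under 0.05, against 3.58% of all genes), and the list shares genes such as *Cps1*, *Asl* and *Gls2* with the amino acid list. *Etnppl*, which breaks down phosphoethanolamine, had 10.5, 26.5, 38.9 and 7.04 CPM in the NT livers and 80.5, 64, 218 and 41.8 CPM in the shFos livers (log2 fold change 2.28). Of 25 pericentral genes, which work near the central vein, 16 were lower (median -0.25), 1 of them with an unadjusted p under 0.05, against 3.16% of all genes. That gene was *Slc1a2*, a glutamate transporter, with 229, 195, 131 and 89.6 CPM in the NT livers and 81.6, 131, 51.5 and 76.5 CPM in the shFos livers (log2 fold change -0.92), and *Glul*, the glutamine synthetase of the last row of pericentral cells, had 1255, 916, 735 and 674 CPM in the NT livers and 697, 828, 323 and 667 CPM in the shFos livers (log2 fold change -0.51, unadjusted p = 0.132). Without NT replicate 4 the 2 medians were 0.33 and -0.26, and the pericentral median was -0.13 without NT replicate 1 and -0.16 without NT replicate 2.

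Lipid genes showed smaller differences. Of 33 genes of fatty acid and triglyceride synthesis, 25 were higher (median 0.15, and 0.26 without NT replicate 4 and 0.34 without NT replicate 1), 4 of them with an unadjusted p under 0.05, and 1 lower gene passed that level. Among all genes 3.58% were higher and 3.16% lower at that level. Beside *Acly*, *Acss2*, which makes acetyl-CoA from acetate, had 182, 251, 88.6 and 81 CPM in the NT livers and 372, 247, 254 and 311 CPM in the shFos livers (log2 fold change 0.97, standard error 0.36). *Scd1*, which puts the first double bond into fatty acids and is named after its values were seen, had 5549, 2192, 1868 and 3493 CPM in the NT livers and 5705, 4547, 11247 and 6445 CPM in the shFos livers (log2 fold change 1.09), with overlap. *Elovl3*, a fatty acid elongase, had 0 to 4.26 CPM and a log2 fold change of 2.51 that rests on few reads. The fatty acid importer *Cd36* was the lower gene, with 174, 161, 154 and 164 CPM in the NT livers and 109, 136, 83.6 and 136 CPM in the shFos livers (log2 fold change -0.49) and the groups apart. Among 26 sterol synthesis genes 17 were higher (median 0.06, and 0.17 without NT replicate 4). Of these *Acat2*, *Pmvk* and *Insig1*, with log2 fold changes of 0.32, 0.67 and 0.48, had an unadjusted p under 0.05, against 3.58% of all genes. Fatty acid oxidation genes (18 of 32 higher, median 0.02), glucose metabolism genes (20 of 34, 0.04) and bile acid genes (19 of 29, 0.07) had medians near that of all genes. *Pdk4*, which holds back glucose oxidation, was the 1 oxidation gene with an unadjusted p under 0.05 (log2 fold change 0.76), where 3.58% of all genes were higher at that level.

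Markers of the cells that make liver matrix were higher in the shFos livers. Of 31 stellate cell and fibroblast markers, 27 had a positive log2 fold change (median 0.52, and 0.45 without NT replicate 4), 11 with an unadjusted p under 0.05 and 7 with the groups apart, against 3.58% and 2.79% of all genes. The protease *Mmp14*, named after its values were seen as are the collagens below, was lower at that level (-0.52). *Acta2*, the smooth muscle actin of activated stellate cells and vessel walls, had 1.78, 4.73, 4.63 and 5.24 CPM in the NT livers and 13, 13.7, 8.34 and 6.22 CPM in the shFos livers (log2 fold change 1.32, standard error 0.36). *Des*, the intermediate filament desmin of stellate cells, had 5.81, 6.23, 6.82 and 7.36 CPM in the NT livers and 10.5, 10.8, 8.57 and 8.61 CPM in the shFos livers (log2 fold change 0.56), and *Timp3*, an inhibitor of matrix proteases, had 23, 20.9, 26.7 and 27.9 CPM in the NT livers and 33, 35.1, 43.6 and 34.3 CPM in the shFos livers (log2 fold change 0.57). The collagen genes *Col1a2* and *Col5a2* had 0.85 and 1.23, and the matrix glycoprotein *Sparc* had 0.59, all 3 with overlap. The summed level of the list was 670.3, 703, 908 and 870.3 CPM in the NT livers and 965, 928, 1159 and 943 CPM in the shFos livers. With a library left out the median lay between 0.35 and 0.59. Endothelial markers were higher for 18 of 24 genes (median 0.16, and 0.11 without NT replicate 2), with *Kdr*, the VEGF receptor of sinusoidal endothelium, at 23.7, 26, 24.6 and 23.1 CPM in the NT livers and 37.5, 33.6, 31.9 and 27.8 CPM in the shFos livers (log2 fold change 0.43, standard error 0.11) and the groups apart. Cholangiocyte markers (7 of 9 higher, median 0.18) had 0 genes with an unadjusted p under 0.05 with all libraries. Without NT replicate 4 their median was 0.55, and the bile duct keratin *Krt19* was called by DESeq2 with a log2 fold change of 1.53 (adjusted p = 0.0362). The median was 0.11 without shFos replicate 1.

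Genes of the acute-phase list, mainly of proteins that hepatocytes secrete in inflammation, were lower in the shFos livers. Most of the size of that difference was lost without NT replicate 4. Of 31 tested, 29 were lower in the shFos livers, 10 with an unadjusted p under 0.05 against 3.16% of all genes, and the median log2 fold change was -0.94. It was -0.26 without NT replicate 4, with 25 of 31 still lower. *Saa2*, a serum amyloid A protein that rises steeply in an acute-phase response, had 56.7, 256, 35.7 and 10852 CPM in the NT livers and 30.8, 52.2, 66.8 and 20.9 CPM in the shFos livers. Its neighbour *Saa1*, a close paralog that can share reads with it, had 66.2, 394, 41.8 and 7866 CPM in the NT livers and 55.4, 69, 92.3 and 24.7 CPM in the shFos livers. *Lcn2*, an iron-scavenging lipocalin, had 233, 742, 93.1 and 6151 CPM in the NT livers and 145, 121, 184 and 93.1 CPM in the shFos livers. NT replicate 4 was far above the other 7 libraries for all 3, NT replicate 2 was next, and NT replicates 1 and 3 lay within or near the shFos range. Without NT replicate 4 the log2 fold changes of *Saa2*, *Saa1* and *Lcn2* went from -6.04, -5.11 and -3.73 to -1.45, -1.47 and -1.40. For *Lrg1*, a glycoprotein that acts on TGF-beta signalling, 1144, 1074, 583 and 3577 CPM in the NT livers and 632, 492, 518 and 567 CPM in the shFos livers gave -1.53 with all libraries and -0.77 without that library. The protease inhibitors *Serpina3n* (-2.44 and -0.58) and *Itih4* (-0.63 and -0.58), the metallothioneins *Mt1* (-2.15 and -0.95) and *Mt2* (-2.24 and -0.91) and the fibrinogen-like *Fgl1* (-0.69 and -0.49) completed the 10. The fibrinogen chains *Fga*, *Fgb* and *Fgg*, with -0.91, -0.98 and -0.77, came to -0.19, -0.22 and -0.17 without it. *Hp*, *Orm1*, *Orm2*, *Orm3*, *Saa3*, *Apcs*, *Itih3*, *Steap4* and *C4bp* remained lower, between -0.40 (*Orm2*) and -0.13 (*Hp*), whereas *Hpx*, *Lbp*, *Saa4*, *Serpina3k* and *Il1rn* became higher, with 0.15, 0.02, 0.06, 0.50 and 0.36. *Hamp*, the iron hormone hepcidin, had 0.14 with all libraries and -0.13 without NT replicate 4, *Agt*, angiotensinogen, had 0.34 and 0.21, *Crp* had -0.15 and -0.30, and *Serpina3m* had -0.45 and -0.02. *Cp*, described above, was the only member of the 31 with a DESeq2 call with all libraries, and it was not called without NT replicate 4.

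Neutrophil and macrophage markers were lower in the shFos livers, with low counts or wide spread. All 12 neutrophil markers tested had a negative log2 fold change (median -1.86, and -0.66 without NT replicate 4 and -2.86 without shFos replicate 1), 3 with an unadjusted p under 0.05 against 3.16% of all genes. Their summed level was 39.7, 69.98, 33.8 and 207 CPM in the NT livers and 63.9, 16.3, 17.7 and 12.4 CPM in the shFos livers, so NT replicate 4 held the most and shFos replicate 1 overlapped the NT range. *Ngp*, a neutrophil granule protein, had 7.52, 14.1, 1.41 and 47 CPM in the NT livers and 6.51, 0.222, 0.587 and 0.718 CPM in the shFos livers (log2 fold change -3.11, and -1.93 without NT replicate 4). Of 28 Kupffer cell and macrophage markers, 25 were lower (median -0.63, and -0.62 without NT replicate 4), 2 with an unadjusted p under 0.05 and 0 with the groups apart, against 3.16% and 1.52% of all genes. They summed to 726, 1489, 2913 and 1624 CPM in the NT livers and 1208, 1490.2, 857 and 1005 CPM in the shFos livers. NT replicate 3 was highest and NT replicate 1 lowest of all 8, so the spread within the NT group covered the shFos livers. *Vsig4*, a complement receptor of Kupffer cells, had 20.6, 45.2, 173 and 102 CPM in the NT livers and 42.2, 48.1, 24.2 and 31.3 CPM in the shFos livers (log2 fold change -1.22), *Itgam*, the integrin of infiltrating myeloid cells, had -1.71 (-1.05 without NT replicate 4), and *Cd163*, a hemoglobin scavenger receptor, had -1.03. *Pf4* above had the same order of NT livers, with replicates 3 and 4 highest and replicate 1 lowest. Among the shFos livers, replicate 3 was highest for *Pf4* and lowest for the macrophage sum, at 857 CPM. Whether macrophage content bears on the difference of *Pf4* was not tested. With NT replicate 3 left out the macrophage median was -0.18, and with NT replicate 1 left out -0.92. The T and NK cell list (17 of 20 higher, median 0.32) and the B and plasma cell list (10 of 15 lower, -0.31) rested on low counts. Their medians were 0.13 and -0.51 without NT replicate 4, 0.08 for the T and NK cell list without shFos replicate 2, and 0.89 for the B and plasma cell list without NT replicate 3. In the latter *Jchain*, which joins polymeric immunoglobulins, was higher, with 9.5, 5.94, 8.02 and 1.01 CPM in the NT livers and 30.4, 17.8, 26.4 and 13.6 CPM in the shFos livers (log2 fold change 1.86, standard error 0.55), and the groups did not overlap.

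Inflammatory signalling genes outside the acute phase were lower in smaller numbers. Of 30 genes of IL-6 and Stat3 signalling, 22 were lower (median -0.24, and -0.06 without NT replicate 4), 5 of them with an unadjusted p under 0.05, and 2 were higher at that level, against 3.16% and 3.58% of all genes. *Socs3*, the feedback inhibitor of Stat3, had 8.77, 12.1, 9.42 and 144 CPM in the NT livers and 8.14, 7.17, 8.69 and 5.74 CPM in the shFos livers, a log2 fold change of -2.55 that became -0.45 without NT replicate 4, and the 2 higher genes were the cytokine receptor *Il11ra1* (0.45) and the lymphocyte growth factor *Il7* (1.27). The NF-kB and TNF list had 20 of 28 lower (median -0.10, and -0.20 without NT replicate 1). Its *Tnfrsf1a*, the main TNF receptor, had 115, 125, 106 and 176 CPM in the NT livers and 82.7, 89.5, 79.1 and 81.7 CPM in the shFos livers (log2 fold change -0.65, standard error 0.16; -0.48 without NT replicate 4), with every shFos liver below every NT liver. Chemokines and cytokines were lower for 16 of 24 (median -0.20, -0.31 without NT replicate 4, -0.05 without NT replicate 3 and -0.39 without shFos replicate 2), among them *Ccl9* with -0.51 and *Ccl6* and *Cxcl13* with -1.88 and -2.90, both highest in NT replicate 4 at 176 and 279 CPM. Without that library *Ccl6* and *Cxcl13* had -0.80 and -1.19. Interferon-stimulated genes split 17 higher and 14 lower (median 0.07), with NT replicate 2 highest and NT replicate 4 lowest, and without NT replicate 4 the median was -0.19 and 23 of 31 were lower. Without NT replicate 2 it was 0.56. MHC class II and other antigen presentation genes had 13 of 18 lower (-0.21, and -0.44 without NT replicate 4, but 0.24 without NT replicate 2), 0 with an unadjusted p under 0.05.

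Immediate early genes other than AP-1 were lower as well. Of 20 tested, 17 had a negative log2 fold change (median -0.34, and -0.32 without NT replicate 4), 6 with an unadjusted p under 0.05 and 3 with the groups apart, against 3.16% and 1.52% of all genes. Besides *Ier3*, *Ier2* had 16.1, 17.7, 19.9 and 25.1 CPM in the NT livers and 13.5, 12.2, 14.5 and 13.6 CPM in the shFos livers (log2 fold change -0.55), *Plk3*, a stress-activated kinase, had 58.7, 55.4, 49.7 and 46.2 CPM in the NT livers and 43.2, 45.3, 40.9 and 33.3 CPM in the shFos livers (-0.37), and *Trib1*, a pseudokinase that marks C/EBP proteins for degradation, had 32.7, 32.4, 28 and 18.2 CPM in the NT livers and 19.1, 15.4, 16.6 and 11.2 CPM in the shFos livers (-0.84, and -1.01 without NT replicate 4). The unfolded protein and heat shock list had 20 of 36 lower (median -0.22, -0.11 without NT replicate 1 and -0.12 without shFos replicate 1), with *Xbp1*, the central factor of the secretory stress response, at 356, 252, 260.2 and 538 CPM in the NT livers and 196, 226, 199.8 and 215 CPM in the shFos livers (log2 fold change -0.75, and -0.48 without NT replicate 4), *Ppp1r15a* at -0.41 and *Trib3* at -1.69, and the small heat shock gene *Hspb1* was higher, with 0.92.

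**Figure D3:**
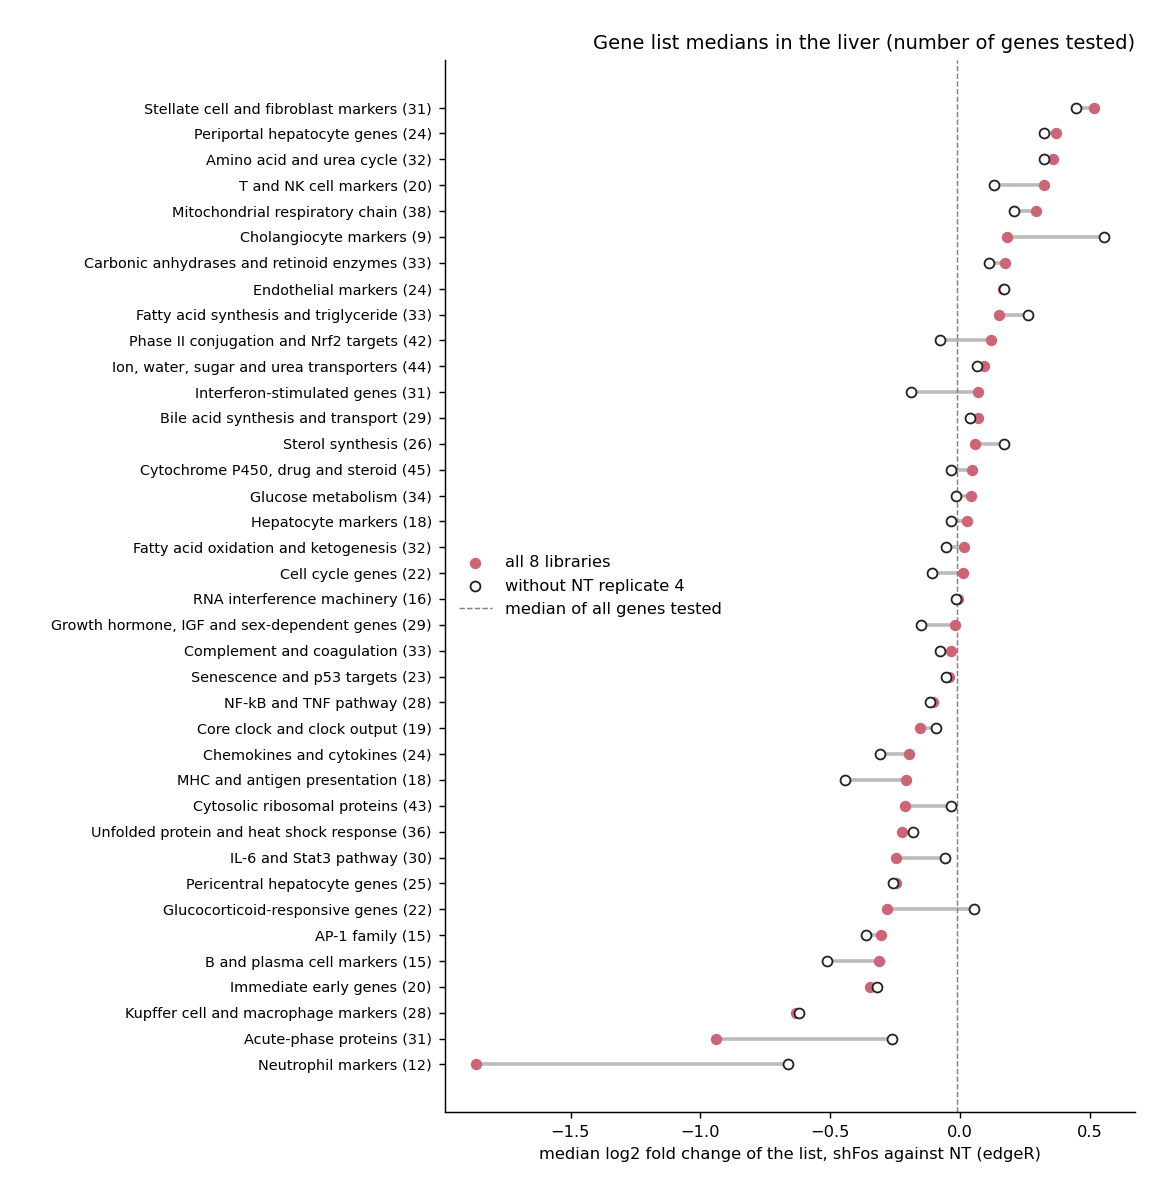
Median log2 fold change of each gene list in the shFos against the NT livers with all 8 libraries (red) and without NT replicate 4 (open), with the number of genes tested in parentheses and a dashed line at the median of all genes. Stellate cell, periportal, amino acid and respiratory chain lists lie right of the line in both fits, Kupffer cell, AP-1 and immediate early lists lie left of it in both, and the acute-phase and neutrophil lists move by 0.68 and 1.20 towards the line without NT replicate 4.

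NT replicate 4 differed from its group in both directions. Of its 1722 genes more than 2-fold away, 748 were higher and 974 lower. Plasma proteins and enzymes made by hepatocytes were among those furthest below. *A1bg*, a plasma glycoprotein made mainly in female mouse liver, had 4.66 CPM in NT replicate 4 against 5033 to 5909 CPM in the other NT livers, and *Serpina6*, the corticosteroid-binding globulin, had 3.6 against 2279 to 10787 CPM. *Car3*, a carbonic anhydrase, had 3.12 against 1015 to 2119.7 CPM, and *Hamp2*, the second hepcidin gene, 3.55 against 473 to 1813 CPM. The major urinary protein *Mup3* had 4.71 against 563 to 951 CPM. Major urinary protein genes are near-identical copies, so its separate level is uncertain. Among genes that were higher, *Cyp2d9* had 78.8 against 1.72 to 2.42 CPM and *Igfbp1*, an insulin- and stress-responsive binding protein, 655 against 229 to 286 CPM. *Alb* was lower too, at 27345 against 104128 to 170014 CPM, while *Fga* reached 25524 CPM. Cytosolic ribosomal proteins were higher there (median 0.51 above the NT mean on the log2 scale), and their list, with all 43 genes lower in the shFos livers (median -0.21) and 0 with an unadjusted p under 0.05, had a median of -0.04 without it. shFos replicate 3 was also low for some of these genes, with *A1bg* at 1366 CPM against 4601 to 7300 CPM in the other shFos livers and *Hamp2* at 175 CPM.

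**Figure D4:**
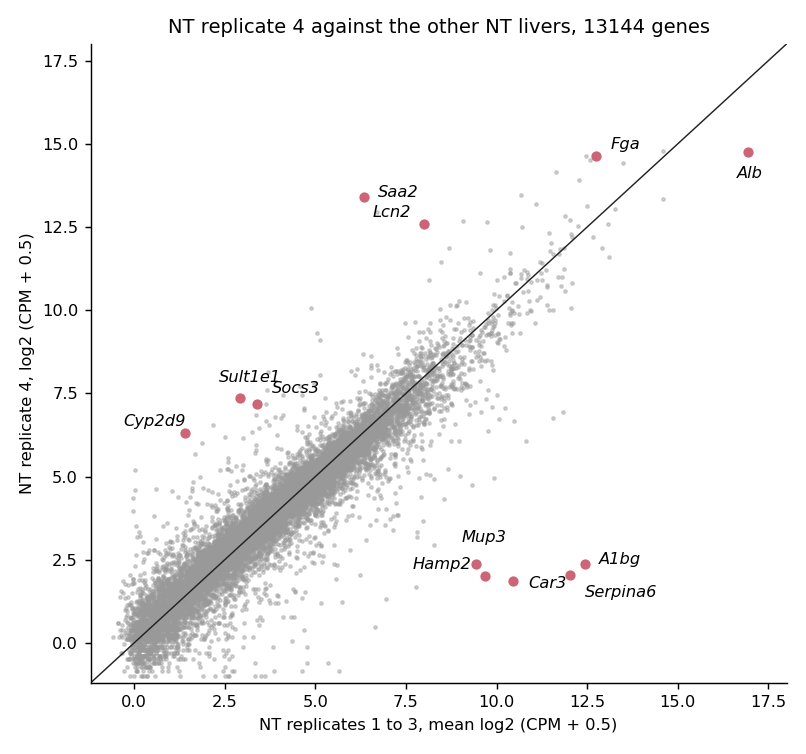
Each point is a liver gene, with its mean log2 (CPM + 0.5) in NT replicates 1 to 3 on the horizontal axis and its value in NT replicate 4 on the vertical axis, and the line marks equal values. *Saa2*, *Lcn2*, *Socs3*, *Sult1e1* and *Cyp2d9* lie far above the line, and *A1bg*, *Serpina6*, *Car3*, *Hamp2* and *Mup3* far below it.

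Leaving out this library moved the log2 fold change of 103 of the 13144 genes by more than 1, in each case towards higher values in the shFos livers, and changed the sign of 2471 genes (18.8%). The median log2 fold change of all genes was -0.01 with all libraries and -0.01 without this one. Genes with an unadjusted p under 0.05 with all libraries (886) and without this library (847 of the same 13144 genes) had 536 in common, all with the same sign. In a fit that chose its own genes without this library, 3.56% of genes were higher and 2.88% lower at that level. edgeR still called 0 genes, and DESeq2 called 52 (0.418%), of which 21 were among the 37, which is 56.8% of the 37 and 40.4% of the 52. The 52 comprised 26 higher and 26 lower genes. The genes that DESeq2 called only with this library left out, named here after their values were seen, included the stellate and vessel genes *Acta2* and *Timp3* (DESeq2 adjusted p = 0.0405 and 0.0405), *Gls2* (0.0125), *Csad* (0.000487), *Jchain* (0.000935) and *Trib1* (0.000535). *Cdkn1a*, the cell cycle inhibitor p21, was among them with a DESeq2 log2 fold change of 1.74, against 0.43 with all libraries in edgeR. NT replicate 4 held 111 CPM against 7.73 to 24.4 CPM in the other NT livers. *Dusp6*, a phosphatase that shuts off ERK, and *Slc25a25*, a mitochondrial ATP carrier, were called with DESeq2 log2 fold changes of -1.09 and -0.80.

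**Figure D5:**
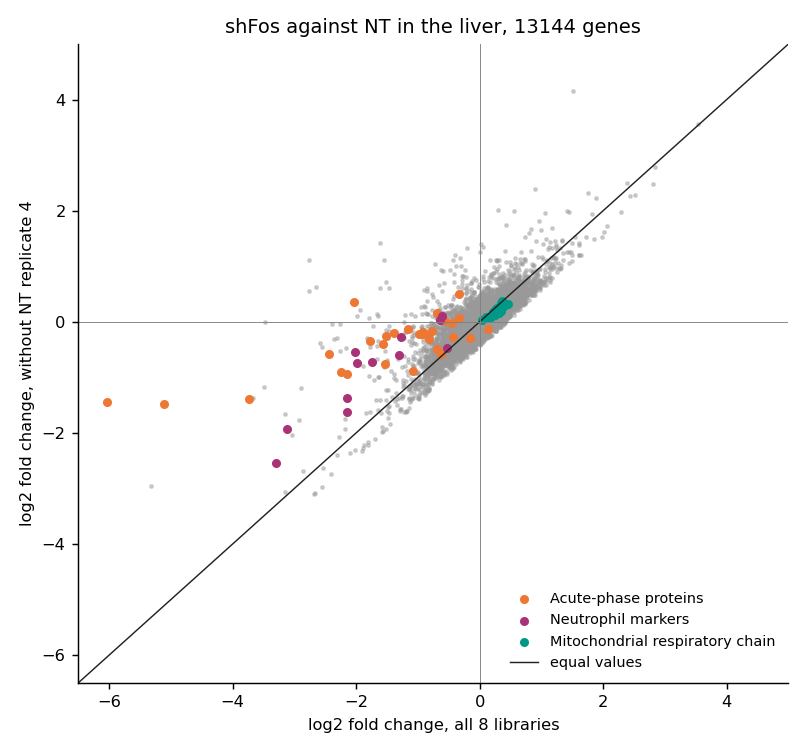
Log2 fold change of each liver gene in the shFos against the NT livers with all 8 libraries (horizontal axis) and without NT replicate 4 (vertical axis), with acute-phase, neutrophil and respiratory chain genes in colour and a line at equal values. Acute-phase genes such as *Saa2* move from -6.04 to -1.45, while the respiratory chain genes stay near the line.

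The remaining groups had medians closer to that of all genes or that depended on a library. Glucocorticoid-responsive genes had 14 of 22 lower (5 with an unadjusted p under 0.05, beside 2 higher, where all genes had 3.16% and 3.58%), and their median turned from -0.28 to 0.05 without NT replicate 4. *Tsc22d3*, which was higher, and *Igfbp1*, which was lower with 286, 237, 229 and 655 CPM in the NT livers and 144, 208, 177 and 103 CPM in the shFos livers (log2 fold change -1.15, and -0.68 without that library), differed in opposite directions. Cytochrome P450 genes (25 of 45 higher, median 0.04), conjugation and Nrf2 genes (29 of 42, 0.12), complement and coagulation genes (13 of 33, -0.04) and growth hormone and sex-dependent genes (14 of 29, -0.02) were near the median of all genes. Among them *Ephx1*, the microsomal epoxide hydrolase, had 251, 288, 360.2 and 219.8 CPM in the NT livers and 502, 416, 449.6 and 372 CPM in the shFos livers (log2 fold change 0.64) with the groups apart, *Igf1* had 0.53, and the female-biased *Cyp2b13* had 153 CPM in shFos replicate 3 against 1.91 to 14.6 CPM elsewhere. Clock genes, whose levels follow the hour of the day, were lower for 10 of 19 (median -0.15, but 0.03 without NT replicate 1), 3 with an unadjusted p under 0.05 against 3.16% of all genes. They had *Nr1d1* at 3.3, 75.7, 47.2 and 33.3 CPM in the NT livers and 1.96, 15.1, 6.4 and 3.95 CPM in the shFos livers (log2 fold change -2.54) and *Dbp* at 14.9 CPM in NT replicate 2 against 0.41 to 1.46 CPM in the other libraries. Cell cycle genes (11 of 22 higher), senescence and p53 genes (11 of 23), transporters (29 of 44), carbonic anhydrases with retinoid enzymes (24 of 33) and the RNA interference machinery (8 of 16) had medians between -0.04 and 0.18. The median of the 2 erythroid markers was 0.40, and 0.08 without NT replicate 4.

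Whether the liver differed from the kidney in its response was tested as the interaction of tissue and treatment over all 16 libraries. Of 15421 genes, 0 had an adjusted p under 0.05 in edgeR (0%), and 2482 had an unadjusted p under 0.05 (16.1%). DESeq2, run as an alternative, gave an adjusted p under 0.05 for 344 genes. The number of genes it adjusted there was not recorded, so no share is given. The 5 smallest p-values belonged to *Ankib1*, a ubiquitin ligase with 29.8, 20.8, 25.4 and 22.1 CPM in the NT livers and 14.9, 20.2, 17.7 and 18.4 CPM in the shFos livers and a liver minus kidney difference of -1.15 on the log2 scale, to the calcium-regulated factor *Nfatc4* (2.08), to the membrane protease *Adam10* (-0.74), to *Ndufs7* of complex I (0.79) and to *Sipa1l2* (-1.19), each with an adjusted p of 0.179. In the kidney *Ankib1* had 0.71 against -0.46 in the liver, and *Sipa1l2* 0.39 against -0.82. The AP-1 family had a median of -0.34 in the kidney and -0.30 in the liver over the same 15 genes. The respiratory chain had 0.12 against 0.29, with 6 of 38 genes at an unadjusted interaction p under 0.05, near the 16.1% of all genes. The unfolded protein and heat shock list had 0.28 in the kidney against -0.22 in the liver, with 13 of 36 genes at that level, against 16.1% of all genes. *Car14* and *Acly* had positive values in the kidney too, with 0.63 and 0.72 (kidney adjusted p = 0.151 and 0.134 in edgeR).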

How the data were processed

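RNA-seq was made from whole liver and kidney of the same study, and the 8 liver libraries are described. Per the submitters' processing notes the authors used Trimmomatic 0.39, HISAT2 2.2.1 and HTSeq 0.12.4 with mm10. They deposited raw read counts per gene for each sample, with no normalization, counted without regard to strand, so that reads from a gene and an overlapping antisense gene cannot be told apart. Library groups were taken from the sample labels. The 5 summary lines of each file were left out, and reads on no gene came to 13.4% to 15.7% of each liver library.

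The main test was edgeR 4.0.16 in R 4.3.3, with TMM scaling, filterByExpr, and the robust quasi-likelihood F-test on treatment over the 8 liver libraries, and p-values were adjusted by the Benjamini-Hochberg method. DESeq2 1.42.0, limma 3.58.1 with voom and sample quality weights, other scalings and filters, the replicate number as a block, all 16 libraries together, and fits with each library left out were alternatives. The liver minus kidney difference was fitted as an interaction over 16 libraries. Standard errors of log2 fold changes are from the edgeR fit, *Fos* CPM was also compared by an exact permutation test, and list medians per library used log2 (CPM + 0.5). Scripts that test across genes were tested on simulated data. Gene positions are from GENCODE M21 and promoters from RefSeq (GRCm38.p6).

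Genes were named by rule: *Fos*, the 10 smallest p-values in each direction, genes with a DESeq2 or edgeR adjusted p under 0.05, the 4 members with the smallest p of each of 39 gene lists, all AP-1 and acute-phase members, the 10 genes with the largest difference of NT replicate 4 at a mean of at least 5 CPM, the 10 most abundant genes, and the 5 smallest interaction p-values. Not every gene the rule allows is printed, and some genes are not reported here. Members and lists were chosen with earlier results of these data known.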

Additional observations from a re-analysis of the deposited data

Results flagged for a closer look

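In 398 groups of 4 livers, a gene or list in NT or shFos, the highest or lowest library was tested for its distance from the other 3 by Dixon's criterion, and 44 had such a library. Chance gives about 1 in 20 for independent samples. The groups overlap, and the genes include all acute-phase genes and *A1bg*, *Serpina6*, *Car3*, *Hamp2*, *Mup3* and *Saa2*, named for their difference in NT replicate 4. The number of groups in which that library lies apart is therefore a description. Of the 44, 26 were NT replicate 4. NT replicate 4 lay above the other 3 libraries of its group for *Cd9* at 60.3 CPM, *Cdkn1a* at 111 CPM, *Cyp2d9* at 78.8 CPM, *Fga* at 25524 CPM, *Fgb* at 23525 CPM, *Fgg* at 15402 CPM, *Fosl2* at 26.9 CPM and *Igfbp1* at 655 CPM. NT replicate 4 lay above the other 3 libraries of its group for *Il1rn* at 92.6 CPM, *Itih3* at 5739 CPM, *Krt19* at 5.82 CPM, *Lcn2* at 6151 CPM, *Ltbr* at 142 CPM, *Orm1* at 11335 CPM, *Saa1* at 7866 CPM and *Saa2* at 10852 CPM. NT replicate 4 lay above the other 3 libraries of its group for *Saa3* at 102 CPM, *Serpina3n* at 6612 CPM, *Socs3* at 144 CPM and *Sult1e1* at 164 CPM. NT replicate 4 lay below the other 3 libraries of its group for *A1bg* at 4.66 CPM. NT replicate 2 lay above the other 3 libraries of its group for *Cx3cl1* at 1.85 CPM and *Dbp* at 14.9 CPM. NT replicate 3 lay above the other 3 libraries of its group for *Ccdc141* at 17.6 CPM. shFos replicate 1 lay above the other 3 libraries of its group for *Car14* at 43 CPM and *Ngp* at 6.51 CPM. shFos replicate 2 lay above the other 3 libraries of its group for *Batf2* at 1.44 CPM and *Ier3* at 3.44 CPM. shFos replicate 3 lay above the other 3 libraries of its group for *Col5a2* at 14.9 CPM, *Cps1* at 4181 CPM, *Cyp2b13* at 153 CPM, *Gas2* at 95.7 CPM, *Hpx* at 11878 CPM, *Mmd2* at 45.7 CPM, *Nr1i2* at 119.7 CPM and *Slc14a1* at 0.47 CPM. shFos replicate 4 lay above the other 3 libraries of its group for *Gm11437* at 10.9 CPM. shFos replicate 4 lay below the other 3 libraries of its group for *Orm2* at 107 CPM. Over whole lists, as the mean log2 CPM of the members, carbonic anhydrases and retinoid enzymes stood at 4.86 in shFos replicate 4 against 5.07 to 5.09, cytochrome P450, drug and steroid stood at 6.56 in NT replicate 4 against 7.39 to 7.52, glucocorticoid-responsive genes stood at 7.57 in NT replicate 4 against 6.04 to 6.28, growth hormone, IGF and sex-dependent genes stood at 5.24 in NT replicate 4 against 6.46 to 6.62, ion, water, sugar and urea transporters stood at 4.79 in NT replicate 4 against 5.32 to 5.41 and phase II conjugation and Nrf2 targets stood at 5.58 in NT replicate 4 against 6.45 to 6.59.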

How the results depend on the processing

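The count of 0 edgeR calls held under both other scalings, both other filters on low counts, the newer dispersion estimate, all 16 libraries, limma voom, a 2-fold threshold and each library left out, whereas DESeq2 gave 37. With an unadjusted p under 0.05 the 886 genes became 1594 in the fit over all 16 libraries, between 811 and 1061 in the other fits that kept all 8 libraries without a block, and 538 to 1224 with a library left out, the lowest without shFos replicate 1. DESeq2 calls were 19 with a 2-fold threshold, 28 with its default low-count filter, and 2 to 86 with a library left out. The 567 genes whose groups did not overlap became 782 to 1199, since fewer libraries have to be apart. The interaction gave 344 genes in DESeq2 and 0 to 1 in edgeR with a liver library left out, the 1 without shFos replicate 2. Without NT replicate 4 and shFos replicate 3 together, a choice made after seeing the data as were the DESeq2 refits, edgeR called 0, DESeq2 33 and 653 had an unadjusted p under 0.05.

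Replicate numbers did not pair the livers: the deviations of same-numbered livers had correlations of -0.05, 0.04, -0.095 and -0.26. With the replicate block edgeR called 0 genes in the liver and 0 in the interaction, 600 had an unadjusted p under 0.05, and DESeq2 called 26.

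Of the 160 named genes, 142 kept their direction under every alternative. Those that changed sign with a library left out had log2 fold changes across these ranges: *A1bg* -0.15 to 0.57, *Alb* -0.24 to 0.43, *Atf3* -0.20 to 0.084, *Atf7* -0.029 to 0.10, *Batf* -0.57 to 0.22, *Batf2* -0.59 to 0.034, *Cyp2d9* -3.04 to 0.63, *Hamp* -0.13 to 0.50, *Hamp2* -0.49 to 0.89, *Hpx* -1.11 to 0.15, *Il1rn* -2.42 to 0.36, *Lbp* -0.79 to 0.015, *Saa4* -0.52 to 0.063 and *Serpina3k* -0.63 to 0.50. With limma voom and sample quality weights the reversed values were *Alb* -0.024, *Atf2* 0.0022, *Atf7* -0.0067, *Cyp2d9* 0.046, *Hamp2* 0.31, *Il1rn* 0.022 and *Serpina3k* 0.31. Without NT replicate 4 and shFos replicate 3 together the reversed values were *Alb* -0.37, *Atf2* 0.0090, *Cyp2d9* 0.43, *Hamp* -0.14, *Il1rn* 0.10, *Jdp2* 0.031, *Lbp* 0.073, *Orm3* 0.077, *Saa4* 0.056, *Serpina3k* 0.65 and *Serpina3m* 0.10. With the replicate block the reversed value was *Hamp2* 0.28. List medians that changed sign with a library left out spanned B and plasma cell markers -0.67 to 0.89, bile acid synthesis and transport -0.0042 to 0.15, cell cycle genes -0.30 to 0.20, complement and coagulation -0.10 to 0.0025, core clock and clock output -0.22 to 0.025, cytochrome P450 -0.035 to 0.17, fatty acid oxidation and ketogenesis -0.054 to 0.12, glucocorticoid-responsive genes -0.33 to 0.054, glucose metabolism -0.038 to 0.11, growth hormone and sex-dependent genes -0.15 to 0.048, hepatocyte markers -0.055 to 0.066, interferon-stimulated genes -0.19 to 0.56, MHC and antigen presentation -0.45 to 0.24, phase II conjugation and Nrf2 targets -0.076 to 0.22, RNA interference machinery -0.026 to 0.017, senescence and p53 targets -0.058 to 0.048 and sterol synthesis -0.028 to 0.17. The cause was not tested.

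With 4 livers a group and wide spread in NT and shFos livers, p-values measure the spread between these libraries, and genes near the floor of 0.156 to 0.198 CPM rest on few reads.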

Other observations

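Some genes not yet described had the groups apart. *Kcnk5*, a potassium channel, had 18.5, 20.3, 25.7 and 12 CPM in the NT livers and 26.3, 30.3, 32.6 and 34.9 CPM in the shFos livers (log2 fold change 0.70; edgeR unadjusted p = 0.00791). *Ccdc141*, a coiled-coil protein, had 13.7, 13.2, 17.6 and 13.3 CPM in the NT livers and 19.7, 19.9, 22 and 23.2 CPM in the shFos livers (log2 fold change 0.55; edgeR unadjusted p = 0.00148). *Cx3cl1*, the membrane-bound chemokine fractalkine, had 1.52, 1.85, 1.56 and 1.53 CPM in the NT livers and 2.58, 3.28, 2.82 and 1.97 CPM in the shFos livers, so that it was higher in the shFos livers while most chemokines were lower. *Mx2*, an interferon-induced GTPase, had 8.58, 7.21, 8.33 and 7.83 CPM in the NT livers and 9.93, 10.1, 12.8 and 8.91 CPM in the shFos livers (log2 fold change 0.38). It was the 1 interferon-stimulated gene of 31 with an edgeR unadjusted p under 0.05, where 3.58% of all genes were higher at that level.

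*Slc39a14*, a zinc and iron importer that responds to inflammation, had 321, 280.03, 230.5 and 688 CPM in the NT livers and 168, 248, 208 and 194 CPM in the shFos livers (log2 fold change -0.89, and -0.45 without NT replicate 4), while *Slc39a4*, the gut-type zinc importer, had 0.42. *Sesn2*, a stress protein that restrains mTORC1, had 5.54, 6.58, 9.47 and 7.25 CPM in the NT livers and 6, 5, 3.46 and 5.56 CPM in the shFos livers (log2 fold change -0.53). *Zc3h12a*, an RNase that degrades cytokine mRNA, had 6.4, 9.81, 8.38 and 16 CPM in the NT livers and 6.06, 6.72, 6.52 and 5.44 CPM in the shFos livers (log2 fold change -0.72, and -0.42 without NT replicate 4). The clock repressor *Nr1d2* had 16.4, 71.2, 47.5 and 39.7 CPM in the NT livers and 14.9, 32, 18.2 and 17.3 CPM in the shFos livers (log2 fold change -1.09), and its lowest NT liver, replicate 1, was also the lowest for its paralog *Nr1d1*. None of these genes had an adjusted p under 0.05 in edgeR or DESeq2.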
